A study of Mus musculus with 6 samples.

Results

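Transcripts that the GENCODE annotation types as retained intron were followed in cultured mouse cortical neurons. They were chosen by measured level, as the transcripts of that type with a mean of 50 or more expected counts over the 6 libraries, that is, RSEM's estimated read counts per transcript, which need not be whole. Of 123063 transcripts the authors deposited, 18018 carry the type, 15744 had a count in any library, and 4670 in 2990 genes met the minimum. These 4670 are called members below, and the genes that hold them host genes. The neurons came from C57BL/6 neocortex at embryonic day 14 and were grown in 35 mm dishes. There were 2 libraries in each of 3 groups: wild-type neurons on day 1 of culture (DIV1), wild-type neurons on day 3 (DIV3), and neurons labelled Ptbp2 knockout on day 1. The libraries were made from total RNA with a stranded kit. How the knockout was made, and whether the libraries of a group came from separate litters, is not given in the sources used here, so each p-value reflects the spread among these libraries alone.

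An intron is normally cut out of a new RNA before it leaves the nucleus. A transcript that keeps one usually has its reading frame broken, and such RNAs are known to be held in the nucleus, where some are spliced later on a signal, or to be destroyed by nonsense-mediated decay in the cytoplasm. PTBP2 and its paralog PTBP1 are RNA-binding proteins that bind pyrimidine-rich sequence and mostly repress splicing. PTBP1 is known to hold back the splicing of introns near the 3′ end of a few presynaptic genes in cells that are not neurons, and PTBP1 gives way to PTBP2 as neurons form.

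Examples of what these transcripts keep are shown first, each the intron of a coding transcript read whole inside a member. They are introns between coding exons of GRCm38, taken from the GENCODE M21 transcript sequences and written 5′ to 3′ on the strand of the gene, with the splice-site letters at both ends in capitals. The first pair are from members with a large share of their gene (Rps20-201 was added as an example outside the rule for named members), the next pair from members that changed between DIV1 and DIV3, a further pair from members whose share changed in the knockout, and the last pair from Ptbp1 and from Dlg4, which encodes the postsynaptic scaffold PSD-95 and is a known target of PTB proteins.
Rps20-201 intron: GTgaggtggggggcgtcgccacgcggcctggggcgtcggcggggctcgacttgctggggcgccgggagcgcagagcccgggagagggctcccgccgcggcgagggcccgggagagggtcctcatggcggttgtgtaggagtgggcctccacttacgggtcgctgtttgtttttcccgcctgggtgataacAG
Ncl-202 intron: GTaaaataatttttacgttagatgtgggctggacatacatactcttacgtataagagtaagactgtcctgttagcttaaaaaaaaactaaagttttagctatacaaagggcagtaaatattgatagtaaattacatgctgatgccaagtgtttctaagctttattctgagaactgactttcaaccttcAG
Med14-204 intron: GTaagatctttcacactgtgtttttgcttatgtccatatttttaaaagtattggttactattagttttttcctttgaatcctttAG
Hmgn2-207 intron: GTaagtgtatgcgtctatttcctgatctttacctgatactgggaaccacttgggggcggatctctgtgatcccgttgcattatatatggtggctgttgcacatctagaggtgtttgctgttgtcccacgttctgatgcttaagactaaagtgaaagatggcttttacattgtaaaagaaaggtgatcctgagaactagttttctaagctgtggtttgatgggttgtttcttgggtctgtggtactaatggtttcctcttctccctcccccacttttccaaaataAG
Copa-202 intron: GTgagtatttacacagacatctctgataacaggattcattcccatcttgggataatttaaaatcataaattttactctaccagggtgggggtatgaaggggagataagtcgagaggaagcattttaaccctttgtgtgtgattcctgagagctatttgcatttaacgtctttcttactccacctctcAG
Rpl34-204 intron: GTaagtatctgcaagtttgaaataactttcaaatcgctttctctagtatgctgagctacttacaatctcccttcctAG
Ptbp1-210 intron: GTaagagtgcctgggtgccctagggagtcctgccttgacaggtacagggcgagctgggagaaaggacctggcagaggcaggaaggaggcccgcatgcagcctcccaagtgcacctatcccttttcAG
Dlg4-212 intron: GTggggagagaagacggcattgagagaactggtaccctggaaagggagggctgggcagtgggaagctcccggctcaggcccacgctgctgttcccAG
The Rps20 intron is at chr4:3835292-3835483 on the minus strand, is intron 1 of 3 and has 71.9% G or C, and that of Ncl is at chr1:86352320-86352509 (minus strand, intron 10 of 13, 32.6%). The Med14 intron, at chrX:12706446-12706531 on the minus strand, is 86 nt long and intron 17 of 30. That of Hmgn2, at chr4:133966480-133966765 on the minus strand, is 286 nt long. The Copa intron is at chr1:172114834-172115022 on the plus strand (intron 22 of 32, 189 nt), and the Rpl34 intron at chr3:130729151-130729228 on the minus strand (intron 2 of 4, 78 nt). The Ptbp1 intron is at chr10:79858825-79858951 and the Dlg4 intron at chr11:70030992-70031088, both on the plus strand, with 127 and 97 nt. TCTT, the core of a PTB binding motif, was counted on the RNA strand only. It occurs 3 times in the Copa intron and 3 times in that of Hmgn2, 1 time each in those of Ncl and Med14, and 0 times in the other 4. Among member introns within 20% of the same length, 65.0% held TCTT for the length of Copa's, 80.9% for Hmgn2's, 65.1% for Ncl's and 43.7% for Med14's. A match is a description of the letters and not a binding site.

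Some members keep an intron whole. A whole intron of a coding transcript lies inside 2068 members (44.3%), against 23.8% of the retained-intron transcripts below the minimum. Members are also longer, with a median of 1450 nt against 798 nt, and the part of length in such contrasts was not tested. For each of these members 1 kept intron was taken, the one found in the most coding transcripts of the gene, or the shortest among ties. It had a median of 260 nt, while introns of genes with a coding transcript at the same minimum have a median of 1508 nt. The first is 1 chosen intron per member and the second covers all introns. The retained-intron transcripts below the minimum count had a shorter median, 187 nt. Of the kept introns 98.5% begin with GT and end with AG, 13 begin with GC and 7 are of the AT-AC kind, which the minor spliceosome removes. The kept intron was the last coding intron in 7.06% and the first in 10.1%. A snoRNA or scaRNA gene, coding for a small RNA that guides modification of other RNAs, lies in an exon of 63 members (1.35%) from 34 genes, against 0.247% of the transcripts below the minimum. Their median share of the gene was 2.24% and 2.17% in wild-type DIV1 neurons, 2.21% and 2.02% at DIV3, and 1.94% and 2.38% in the knockout, so the groups overlapped in this median. Member by member, 31 of the 63 had lower and 9 higher shares at DIV3 without overlap, and 18 and 8 in the knockout. Over all transcripts 23.2% were lower and 19.7% higher at DIV3 and 27.6% and 18.9% in the knockout, and over all members 36.6% and 9.25%, and 35.1% and 15.2%.

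Most members were a small part of their gene. The share is a member's percent of the summed transcript counts of its gene. Its mean over the libraries had a median of 3.99% and quartiles of 1.68% and 9.77%; for 658 members this mean was under 1%, and for 21 it was 90% or more. In 209 cases the member was the most abundant transcript of its gene, and 1079 genes held more than 1 member. Counts were uneven, with 274 members holding 50% of all member counts. The 509 members just inside the minimum (50 to under 60 counts) had a median share of 1.75%, and the 596 transcripts just outside (40 to under 50) one of 1.38%. A share is no measure of reads over the intron itself, because RSEM also divides reads in exons that several transcripts share. A member's bases outside every coding exon of its gene had a median of 416 nt, and 22 members had none.

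The most abundant members included transcripts of ribosomal protein, tubulin and adhesion genes. Levels are given as CPM (counts scaled by TMM to a common library size), which are not per length. Tubb5-204, from a beta tubulin gene, was at 787 and 578 CPM in the knockout, 409 and 477 in its DIV1 controls and 364 and 530 at DIV3. Ncl-202, from the gene of the nucleolar protein nucleolin, held 63.7% and 65.3% of its gene at DIV1, 56.2% and 58.7% at DIV3, and 62.0% and 63.8% in the knockout. The DIV3 shares lay below all 4 others. Rpl14-202, from a ribosomal protein gene, held 63.4% and 64.4% at DIV1, 54.5% and 58.8% at DIV3 and 70.7% and 64.1% in the knockout, and Rpl37a-204 between 85.7% and 88.5% throughout. Ctnnb1-215, from the gene of the adhesion and Wnt signalling protein beta-catenin, held 27.7% and 30.3% at DIV1, 21.2% and 27.9% at DIV3, and 59.8% and 32.2% in the knockout, where replicate 1 stood far above replicate 2. Tubulin and ribosomal protein genes have near-identical copies, so how their reads were divided is less certain than for other genes. None of these passed a test of share or counts (adjusted p from 0.19 to 1.0, edgeR, Benjamini-Hochberg).

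The libraries held between 39104879 and 75522198 expected counts. Ptbp2 itself stood at 474 and 514 CPM in the libraries labelled knockout, against 465 and 429 CPM in their wild-type controls; a sum over the gene does not check the label where the deleted exons are not given, so knockout denotes the label here. In every group replicate 1 had Xist at 1210 to 1870 CPM and replicate 2 had it at 1.45 CPM or less, with the Y-linked gene Ddx3y at 50.3 to 51.8 CPM in replicate 2 and 0.0693 CPM or less in replicate 1, so replicate number and sex cannot be told apart. The knockout replicates differed most. Over members, the SD of the log2 difference in share between replicates was 0.93 in the knockout, 0.53 in wild-type DIV1 neurons and 0.65 at DIV3. Summed neuron markers (9 of 9 listed genes measured) stood at 5940 to 9930 CPM per library, the highest of the 9 marker lists in each. Other summed lists were far lower but some moved with the day. Pericyte and fibroblast markers were at 14.9 and 15.8 CPM in the wild-type DIV1 libraries and 48.9 and 48.7 CPM on day 3, and oligodendrocyte lineage markers at 11 and 12.4 against 36.3 and 26.9 CPM. Astrocyte markers were at 8.34 and 9.54 against 22.7 and 21.5 CPM, erythroid markers at 12.8 and 7.93 against 0.18 and 0.404 CPM, and endothelial markers at 0.992 CPM or less in every library. Their part in the members' changes was not tested.

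As a set, members were a smaller part of the RNA at DIV3. They held 3.27% and 3.61% of all counts in the wild-type DIV1 libraries, 2.77% and 2.74% on day 3, and 3.69% and 3.48% in the knockout. The DIV3 libraries lay below the other 4, and the knockout libraries overlapped with wild type at DIV1. Summed over members, the part of the host genes' counts was 8.60% and 9.31% at DIV1, 7.67% and 7.54% at DIV3, and 9.29% and 8.96% in the knockout. The median share was 4.09% and 4.37% at DIV1, 3.88% and 3.46% at DIV3, and 3.16% and 4.04% in the knockout. By this measure both DIV3 and both knockout libraries lay below wild type at DIV1. With 2 libraries a group, an exact permutation test of a single value cannot reach 0.05, so none is given. As a comparison, transcripts typed as nonsense-mediated decay had median shares of 7.14% and 7.40%, 6.95% and 7.02%, and 7.59% and 7.39% in the same order. Of all counts, that type held 1.97% and 1.97%, 1.69% and 1.73%, and 2.12% and 2.01%. The type processed transcript held 1.93% and 2.04%, 1.66% and 1.71%, and 2.36% and 2.05%. Both were lowest at DIV3, so a smaller part of all counts there was not particular to members. Coding transcripts held 90.3% and 90.5%, 91.9% and 92.2%, and 89.8% and 90.5%.

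**Figure D1:**
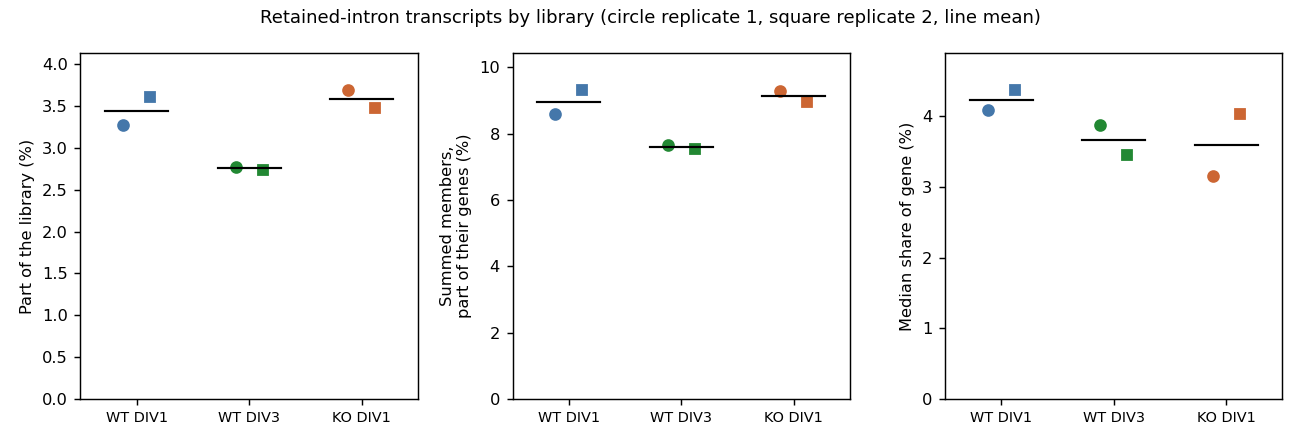
Percent of all counts held by the 4670 members, their summed part of the host genes' counts and their median share, per library, with the group mean as a line. The DIV3 libraries are lowest in the first 2 panels (2.77% and 2.74% of all counts), and knockout replicate 1 is lowest in the third (3.16%).

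The comparison of DIV3 with DIV1 covers early neurite and axon growth in culture. Few members passed a test there, while host genes passed by counts at about the rate of all genes (35.6% beside 36.6%, edgeR). By counts, 5 members rose and 7 fell of 4670 tested (edgeR quasi-likelihood test, Benjamini-Hochberg adjusted p under 0.05), or 0.257%, against 2.82% of all 45964 transcripts tested (1.95% higher and 0.872% lower). Without any one of the 4 wild-type libraries the count was 0, without knockout replicate 1 or 2 it was 74 or 67, and by DESeq2 it was 291. With replicate number added to the fit of all 6 libraries (a replicate block), 0 members were called by counts (edgeR). The median log2 fold change of members was -0.22, against -0.02 for all transcripts. Scaled by library totals, the member median was -0.37. By share, 1 member rose and 1 fell of 4651 tested (0.043%), beside 0.374% of all 38743 transcripts tested (0.196% higher and 0.178% lower).

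**Figure D2:**
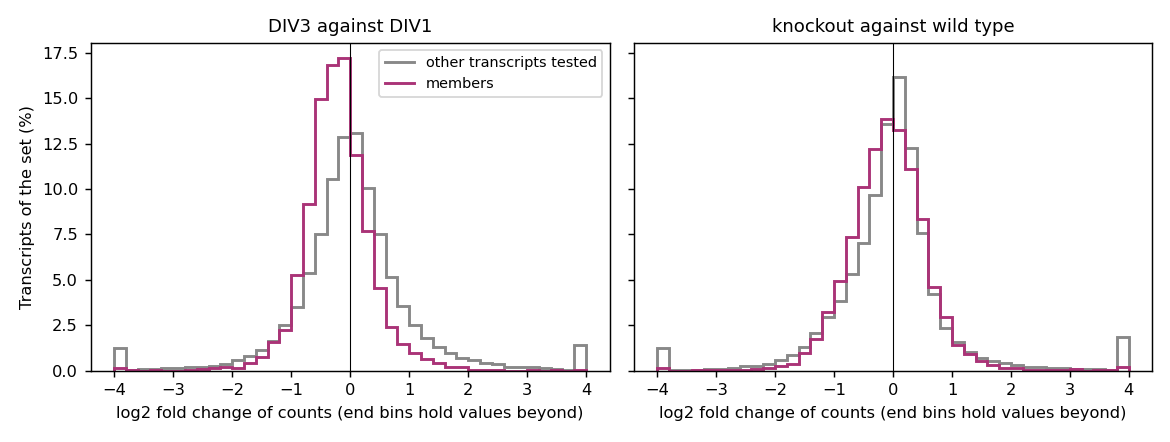
Distribution of log2 fold changes of counts (x axis) for members and for the other transcripts tested, as percent of each set (y axis), in both comparisons. Members lie to the left of the others at DIV3, with a median of -0.22.

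Of the 5 members that rose at DIV3, 4 are in genes that rose too. Frmd4a-207, whose gene encodes a scaffold protein of cell polarity, was at 1.69 and 1.40 CPM at DIV1 and 6.98 and 7.17 CPM at DIV3, with no overlap. Its log2 fold change was 2.19 ± 0.22 (SE; adjusted p = 0.0267, edgeR), that of the gene 0.60 ± 0.14 (adjusted p = 0.0171), and its share went from 0.936% and 0.862% to 2.59% and 2.76%. Gpr12-202, from an orphan G protein-coupled receptor gene, was at 4.71 and 4.38 CPM and then at 14.1 and 13.9 CPM (log2 fold change 1.62 ± 0.23, adjusted p = 0.0458, edgeR). Its shares overlapped, at 75.7% and 61.8% against 77.3% and 73.4%, while the gene rose by 1.45 ± 0.12.

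Phf14-209, a transcript of 5905 nt with no base in a coding exon, from a gene for a PHD-finger chromatin protein, was at 44.9 and 46.3 CPM at DIV1 and at 103 and 107 CPM at DIV3. It rose by 1.2 ± 0.15 (adjusted p = 0.0367, edgeR), and its share was 26.8% and 28.1% against 50.1% and 51.7%. The gene rose by 0.28 ± 0.07 (adjusted p = 0.0151, edgeR). Adgrb3-208, from an adhesion receptor gene of synapses, was at 9.31 and 9.35 CPM and at 17.9 and 17.5 CPM, a rise of 0.92 ± 0.13 beside 0.70 ± 0.13 for its gene. In Med14-204, from a Mediator subunit gene, only the 86 nt intron shown above is not in a coding exon. It was at 5.38 and 5.12 CPM at DIV1 and at 12.2 and 12.4 CPM at DIV3 (1.23 ± 0.15, adjusted p = 0.036, edgeR). Its gene did not pass (0.08 ± 0.11, adjusted p = 0.598), and the share was 5.07% and 5.54% against 11.1% and 11.9%. In the knockout libraries Med14-204 was at 10.2 and 9.25 CPM, above both wild-type DIV1 libraries, without passing (adjusted p = 0.557, edgeR).

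The 7 members that fell include transcripts of dividing cells. Cdca3-203, from a gene for a regulator of mitotic entry, was at 17.6 and 18.8 CPM at DIV1 and at 8.02 and 8.58 CPM at DIV3. It fell by 1.14 ± 0.15 on the log2 scale (adjusted p = 0.0399, edgeR), its gene fell by 1.27 ± 0.11, and its share went from 20.3% and 20.7% to 21.5% and 22.6%. Mad2l1-203, from a spindle checkpoint gene, was at 20.6 and 21.5 CPM and then at 11.8 and 12 CPM, a fall of 0.82 ± 0.11 beside 0.72 ± 0.09 for the gene. Kifc1-205, from a mitotic kinesin gene, was at 2.83 and 2.87 CPM and then at 0.893 and 0.975 CPM. Psrc1-211, from a spindle protein gene, was at 4.30 and 6.02 CPM and then at 1.46 and 1.65 CPM. Their log2 fold changes were -1.61 ± 0.24 and -1.73 ± 0.25 (adjusted p = 0.0491 for both, edgeR), and both genes fell. These groups did not overlap in level.

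Hmgn2-207, from a nucleosome-binding protein gene, was at 19.3 and 21.2 CPM at DIV1 and at 11 and 10.3 CPM at DIV3, with a share of 2.82% and 3.07% against 2.59% and 2.54%. It fell by 0.93 ± 0.13 (adjusted p = 0.0434, edgeR) and its gene by 0.76 ± 0.09. Olfml3-202, from a gene for a secreted protein, falls outside the rule for named members and was chosen after its values were seen; it fell by 2.10 on the log2 scale (adjusted p = 0.0407, edgeR) and held 95.4% and 89.8% of its gene at DIV1 and 88.4% and 91.4% at DIV3. Ddhd1-205, from a phospholipase gene, fell while its gene did not pass. The DIV3 libraries had 19 and 16.9 CPM, their DIV1 controls 30.8 and 33.5 CPM, and the knockout libraries 42.3 and 38 CPM. The fall was 0.84 ± 0.12 (adjusted p = 0.0481, edgeR) against -0.14 ± 0.08 for the gene (adjusted p = 0.211), and the share was 40.2% and 41.5% at DIV1 and 25.8% and 23.4% at DIV3.

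**Figure D3:**
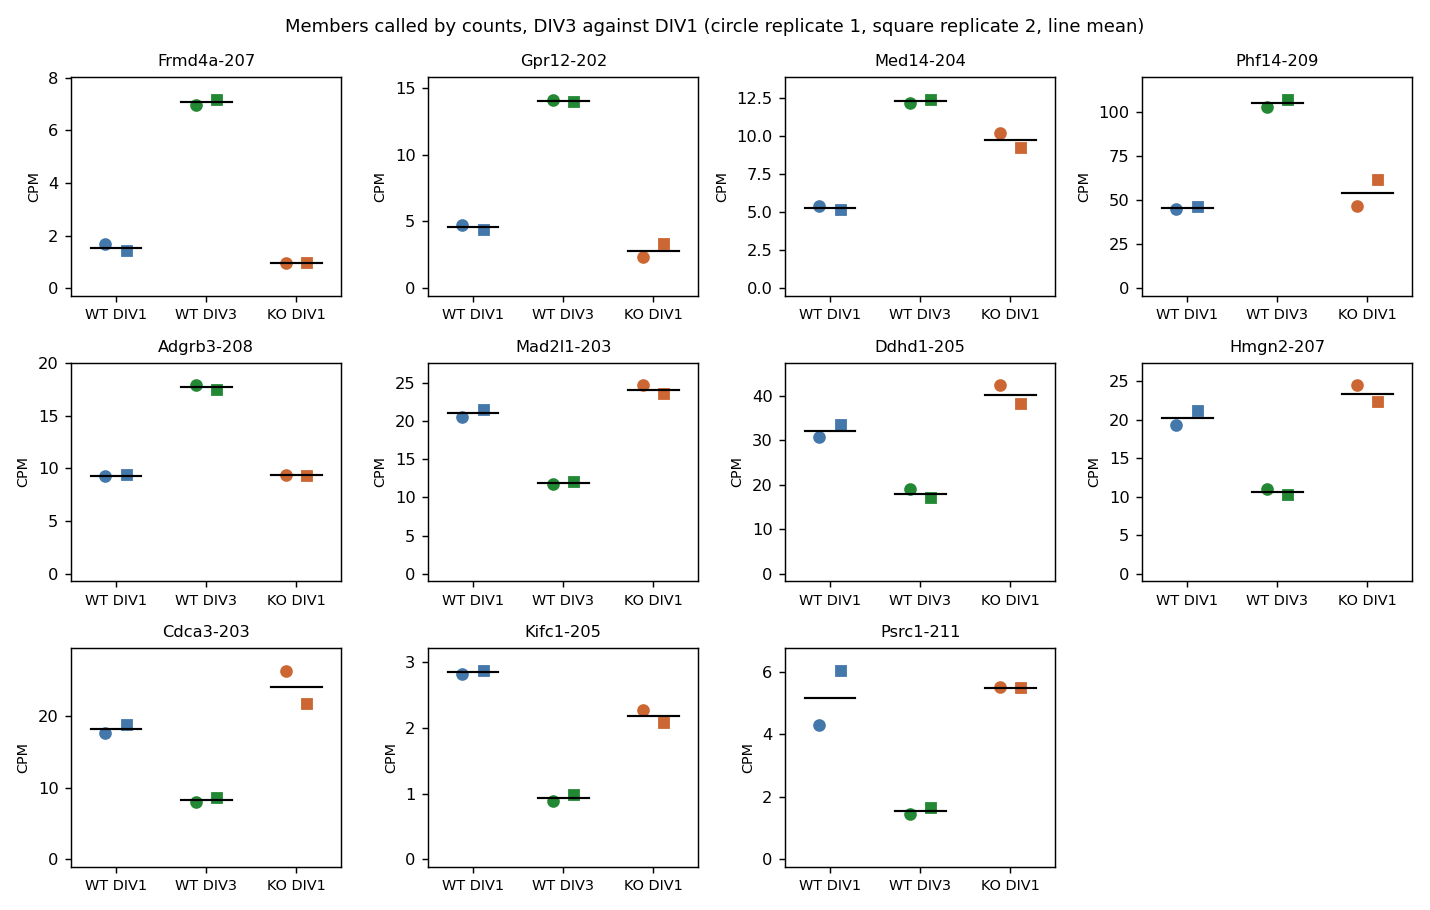
Level in CPM (y axis, from 0) of 11 of the 12 members called by counts between DIV1 and DIV3, per library, with group means as lines. The DIV3 libraries lie apart from both wild-type DIV1 libraries in each panel, above them for Frmd4a-207 (6.98 and 7.17 CPM) and below them for Ddhd1-205 (19 and 16.9 CPM).

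Between DIV1 and DIV3, 497 host genes rose and 568 fell of 2989 tested, which is 35.6% beside 36.6% of all 16471 genes (20.0% higher and 16.6% lower; edgeR). Scaled by library totals, 336 rose and 931 fell. Without any one wild-type library 415 to 509 were called, and without knockout replicate 1 or 2 it was 1683 or 1691. In host genes that rose, the 689 members had a median log2 fold change of counts of 0.31 against 0.50 for their genes, and 45.0% had lower shares at DIV3 in both libraries while 8.85% had higher ones. In host genes that fell, the 911 members had a median of -0.60 against -0.48, and 26.2% had lower and 13.3% higher shares. In the host genes not called, 37.6% of 3069 members had lower and 8.15% higher shares, and over all transcripts these were 23.2% and 19.7%. These classes use the same contrast, and each gene's count includes its members, so the values are a description. Summed intermediate progenitor markers (3 of 3 listed genes measured) were at 488 and 477 CPM at DIV1 and 236 and 227 CPM at DIV3, and summed radial glia markers (6 of 6) at 1660 and 1610 against 1620 and 1650 CPM. Their part in the members' changes was not tested, and in bulk RNA fewer cells of a type and less RNA per cell cannot be told apart.

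Lower shares at DIV3 were more frequent among members than higher ones. Of 4651 members, 1701 (36.6%) had both DIV3 shares below both DIV1 shares and 430 (9.25%) had both above, while over all transcripts these were 23.2% lower and 19.7% higher. The difference was 10 percentage points or more in 63 members lower and 13 higher, beside 2.66% and 2.73% of all transcripts. The summed share of a gene's retained-intron transcripts passed for 0 host genes of 2967 tested (edgeR), beside 0.0% of all 4734 genes tested. At an unadjusted p under 0.05 (edgeR) it was 106 host genes, or 3.57%, beside 3.76% of all genes. Limma's diffSplice called 2 and limma on log2 odds 0, and edgeR called 20 without knockout replicate 1 and 17 without replicate 2.

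Several members with large differences that did not pass were picked after their values were seen. Sptlc2-203, from a gene of sphingolipid synthesis, held 39% and 43.8% of its gene at DIV1, 22.6% and 24.3% at DIV3 and 43.1% and 45.1% in the knockout. In the other direction, Rexo2-202, from an exonuclease gene, held 15.6% in both DIV1 libraries and 30.5% and 28.4% at DIV3, and Dixdc1-209, from a Wnt pathway gene, 8.61% and 8.50% against 21.5% and 18.3%. Each of these had an adjusted p of 1.0 by share (edgeR).

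The members called by share at DIV3 were small parts of their genes. Xpo6-216, from a nuclear export receptor gene, was at 0.0% and 0.00264% of its gene at DIV1, 0.488% and 0.484% at DIV3, and 3.51% and 1.41% in the knockout. The 3 groups did not overlap. It was called higher by share in both comparisons (adjusted p = 0.00668 at DIV3 and 1.43e-05 in the knockout, edgeR diffSpliceDGE). Xpo6-216 had 0 and 0.13 expected counts at DIV1, 32.3 and 17.1 at DIV3 and 179 and 102 in the knockout. It met the minimum of 50 through its DIV3 and knockout counts, mostly the latter. A rise in either comparison was therefore favoured by the choice, and both adjusted p are given as a description. The DIV3 call was lost without wild-type DIV1 replicate 1 or 2 (adjusted p = 0.252 and 0.343, edgeR), and 87 of its bases lie outside coding exons. Hnrnpk-215, from a gene for an RNA-binding protein, held 0.326% and 0.0% at DIV1, 0.0% in both DIV3 libraries, and 0.332% and 0.00319% in the knockout. Its groups overlapped, the call (adjusted p = 0.0214, edgeR diffSpliceDGE) was lost without wild-type DIV1 replicate 1, where it compares 0.0% with 0.0% (adjusted p = 1.0, edgeR), and without DIV3 replicate 1 or 2 (adjusted p = 0.337 and 0.143, edgeR). Only 33 of its bases lie outside coding exons. Hnrnpk-215 had 203 and 0 expected counts at DIV1, 0 in both DIV3 libraries, and 197 and 2.97 in the knockout. It met the minimum of 50 through replicate 1 of wild-type DIV1 and of the knockout. A fall at DIV3 was therefore favoured by the choice, and its adjusted p is given as a description.

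The comparison of the knockout with wild type at DIV1, which shares its control libraries with the comparison above, asks which members change where PTBP2 is meant to be absent. By counts, 206 of 4670 members (4.41%) had an unadjusted p under 0.05 (edgeR quasi-likelihood test), beside 6.42% of all 45964 transcripts. After adjustment 0 members passed (edgeR, with 23 by DESeq2 and 0 by limma voom), beside 0.0% of all transcripts. Without knockout replicate 2 the count was 113. By share, 4 members rose and 3 fell of 4651 (0.151%), beside 0.588% of all 38743 transcripts tested (0.338% higher and 0.25% lower). Without knockout replicate 2 the count was 99, without knockout replicate 1 it was 6, of which 3 are among the 7. Without any 1 of the wild-type libraries it was 4. Limma diffSplice called 8, of which 1, Rpl34-204, is among the 7, and limma on log2 odds called 1, Tmem150c-202. At an unadjusted p under 0.05 (edgeR) were 7.95% of host genes by summed share, beside 7.71% of all genes. By counts these were 17.6% of host genes beside 14.7% of all genes. For the summed share per gene, 0 host genes of 2967 passed (236 at an unadjusted p under 0.05, edgeR), beside 0.0211% of 4734 genes, and without knockout replicate 2 it was 675. Of host genes, 0 of 2989 passed by counts (526 at an unadjusted p under 0.05, edgeR; 42 by DESeq2, 0 by limma voom), beside 0.0% of 16471 genes, and the count was 1361 without knockout replicate 2.

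The 4 members that rose in share all lie toward the 3′ end of their gene. For Igf2bp2-207, Ap3b2-204 and Xpo6-216 the mean over the 4 wild-type libraries is below the minimum of 50 expected counts. They would not be members without the knockout libraries, in which they are high. A rise there was therefore favoured by the choice, and their adjusted p is given as a description. Igf2bp2-207, from a gene for an mRNA-binding protein of growing cells, had 1500 and 235 expected counts in the knockout. It was listed at 0 in the 4 wild-type libraries and held 50% and 5.81% of its gene in the knockout (adjusted p = 0.00652, edgeR diffSpliceDGE; 0.176 and 0.151 without wild-type DIV1 replicate 1 or 2). Only 8 of its 3267 nt lie outside coding exons. Copa-202, from a coatomer gene of vesicle transport, held 1.48% and 3.52% in wild-type DIV1 neurons, 1.11% and 1.29% at DIV3, and 23.9% and 3.53% in the knockout. Its knockout replicate 2 was level with a wild-type library, and the call (adjusted p = 0.0257, edgeR diffSpliceDGE) held only without knockout replicate 2, with adjusted p from 0.124 to 1.0 without any other library. Ap3b2-204, from a neuronal adaptor protein gene, held 0.580% and 0.0984% in wild-type DIV1 neurons and 15.9% and 3.86% in the knockout, with 40 bases outside coding exons. Its call (adjusted p = 0.0333, edgeR diffSpliceDGE) likewise held only without knockout replicate 2, with 0.119 to 0.316 without any other library. In these 3 and in Xpo6-216, replicate 1 was the higher knockout library.

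Of the 3 that fell in share, Rpl34-204 keeps the 78 nt intron shown above. It held 7.42% and 11.1% of its ribosomal protein gene in wild-type DIV1 neurons, 5.85% and 11.3% at DIV3, and 1.07% and 1.08% in the knockout. Both knockout libraries lay below the other 4 (adjusted p = 0.00878, edgeR diffSpliceDGE; 0.192 without knockout replicate 1 and 0.192 without wild-type DIV1 replicate 2). Tmem150c-202, from a membrane protein gene, held 7.08% and 5.53% at DIV1, 7.55% and 6.83% at DIV3, and was listed at 0 in both knockout libraries (adjusted p = 0.00411, edgeR diffSpliceDGE). Its call, like that of Xpo6-216 in the knockout, was kept without each library in turn. Limma diffSplice called neither (adjusted p = 0.415 for Tmem150c-202 and 0.452 for Xpo6-216), and limma on log2 odds gave 0.0275 and 0.0534. Tmem150c-202 and Trim28-204, at 0 in the knockout, met the minimum through the wild-type libraries alone, so their falls were favoured by the choice too. Trim28-204, from a chromatin corepressor gene, held 1.10% and 0.0% at DIV1, 0.817% and 0.0% at DIV3, and was listed at 0 in the knockout. Those groups overlapped, and the call (adjusted p = 0.0257, edgeR diffSpliceDGE) held only without wild-type DIV1 replicate 2, with 0.0591 to 1.0 without any other library.

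**Figure D4:**
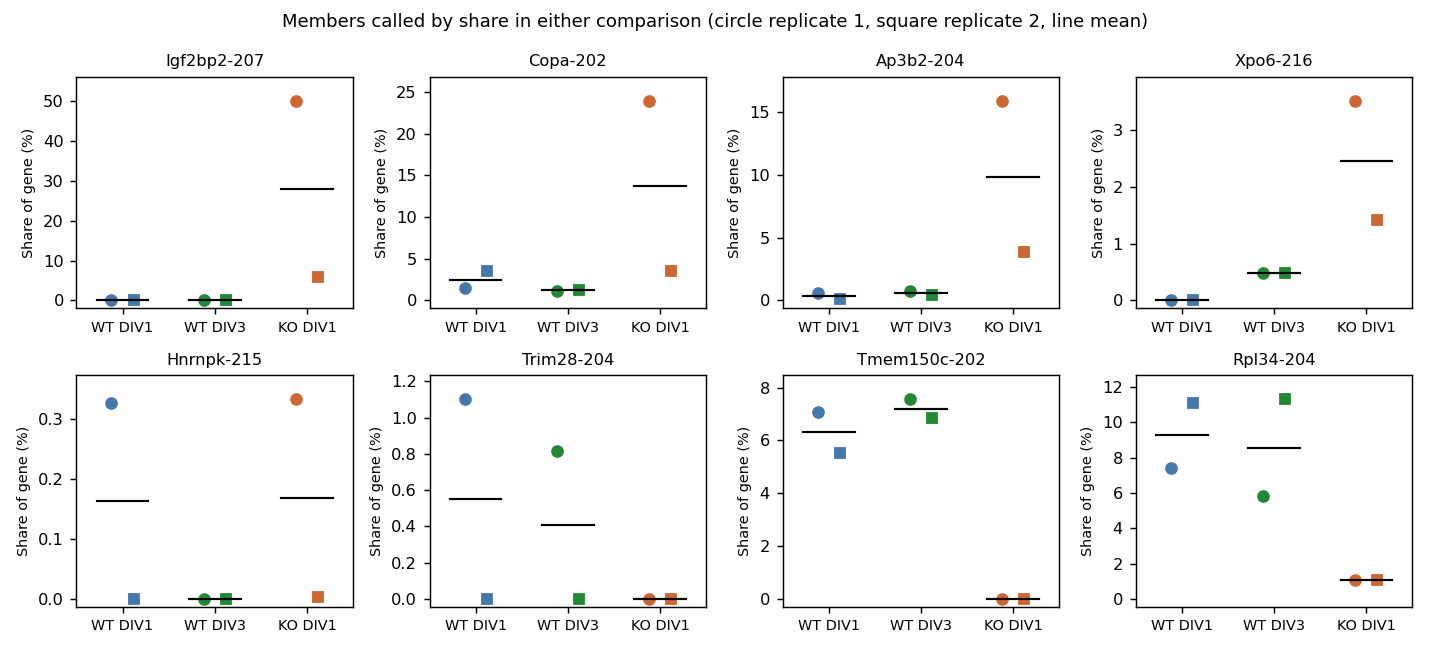
Share of the gene in percent (y axis) of the 8 members called by share in either comparison, per library, with group means as lines. Knockout replicate 1 stands far above replicate 2 for Igf2bp2-207 (50% and 5.81%) and Copa-202 (23.9% and 3.53%), while both are near 1.1% for Rpl34-204.

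Over all members, shares of both knockout libraries lay below both wild-type DIV1 libraries in 1634 (35.1%) and above in 706 (15.2%), while over all transcripts these were 27.6% and 18.9%. Alone, knockout replicate 1 was below both in 60.6% of members and above in 26.8%, and knockout replicate 2 in 40.6% and 26.0%. The differences followed place in the gene, a grouping added after the data were seen. Members were placed by the part of the most abundant coding transcript they cover. For the 1386 in the 5′ part, the median log2 ratio of share to the wild-type DIV1 mean was -0.80 in knockout replicate 1 and -0.14 in replicate 2. For the 822 in the 3′ part it was 0.23 and 0.08, and 56.2% and 43.7% of them lay above both wild-type DIV1 libraries. At DIV3 the 5′ members were at 0.06 and -0.21 and the 3′ members at -0.33 and -0.25. Of the 129 members whose share was higher in the knockout by 10 percentage points or more without overlap, 98 (76%) are in the 3′ part; of all transcripts, 4.13% were higher and 3.62% lower by this rule, and 33 members were lower. The values by place and those of single libraries were worked out for members only. They therefore do not show whether the pattern is particular to members. The part of RNA quality in this pattern was not tested.

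**Figure D5:**
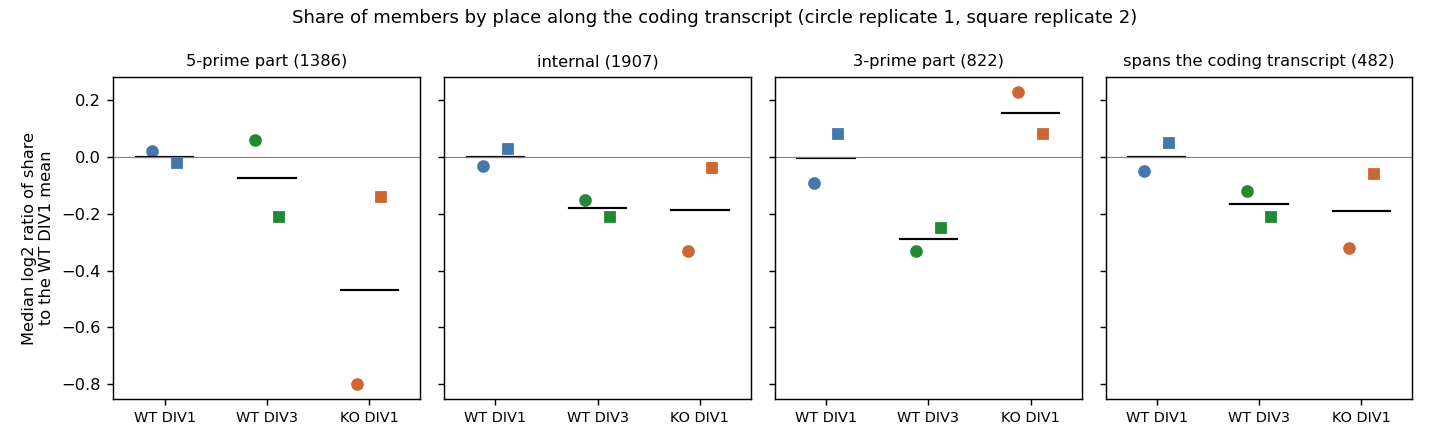
Median log2 ratio of share to the wild-type DIV1 mean (y axis) for members by place along the coding transcript, per library, with group means as lines and the number of members in brackets. Knockout replicate 1 is lowest for 5′ members (-0.80) and highest for 3′ members (0.23).

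Members with large knockout differences that did not pass, picked after their values were seen, are given next. Sema3c-202, from an axon guidance gene, held 35.6% and 46.0% in wild-type DIV1 neurons, 13.3% and 33.3% at DIV3, and 85.4% and 50.2% in the knockout. Kit-208, from a receptor kinase gene, held 23.3% and 30% at DIV1 and 71.5% and 36.1% in the knockout; both are in the 3′ part. Dgcr8-202, in the 5′ part of a gene of microRNA processing, held 67.9% and 68.8% at DIV1 and 20.8% and 64.9% in the knockout. Etv1-212, in the 5′ part of a transcription factor gene, where 51.4% of members had lower and 7.07% higher shares without overlap, held 0.0% and 10.8% at DIV1 and 71.1% and 40.5% in the knockout. These had an adjusted p of 1.0 by share (edgeR).

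The PTB genes themselves hold 5 members, none of which passed (adjusted p from 0.104 to 1.0 by counts or share, edgeR). Ptbp2-211 held 0.785% and 0.695% of Ptbp2 in wild-type DIV1 neurons, 0.861% and 0.887% at DIV3, and 0.0492% and 0.257% in the knockout. Ptbp2-205 held 3.21% and 2.96%, 3.68% and 2.5%, and 0.691% and 2.06% in the same order. In both, the knockout libraries lay below the other 4. Both are internal members. Both knockout shares lay below both wild-type DIV1 shares in 32.5% of internal members, 35.1% of all members and 27.6% of all transcripts. Ptbp1-210, which keeps the intron shown above, held 1.16% and 0.972% at DIV1, 0.547% and 0.376% at DIV3, and 1.01% and 0.704% in the knockout, in a gene that fell by 0.57 ± 0.08 at DIV3 (adjusted p = 0.00268, edgeR). Ptbp1-213 held 6.32% and 8.84% at DIV1, 6.30% and 5.75% at DIV3, and 9.08% and 5.80% in the knockout. Dlg4-212, with its own 97 nt intron, held between 0.538% and 1.11% in every library, and its groups overlapped. Shtn1, an axon outgrowth gene, has no member.

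Splicing factors are genes in which kept introns are well known. Of 26 members in SR protein genes, 9 had lower and 2 higher shares at DIV3 without overlap, and 15 and 2 in the knockout. Over all members 36.6% were lower at DIV3 and 35.1% in the knockout, and over all transcripts 23.2% were lower and 19.7% higher at DIV3, and 27.6% and 18.9% in the knockout. Of 81 in spliceosome genes the numbers were 27 and 10 at DIV3, and 43 and 7 in the knockout, where the median share was 1.65% against 2.38% in wild-type DIV1 neurons. None of these passed a test. Srsf6-204 held 40.1% and 41.5% at DIV1, 41.2% and 38.1% at DIV3, and 32.1% and 40.8% in the knockout. Snrnp70-216, from a U1 snRNP gene, held 26.2% and 28.1%, 21.3% and 18.6%, and 22.3% and 24.8%. Clk1-204, from the gene of a kinase of SR proteins whose introns are known to be held in the nucleus, held 26.8% and 26.6% at DIV1, 34.4% and 28.1% at DIV3, and 12.5% and 25.4% in the knockout. Srrm4-203, from a regulator of neuronal microexons, held 65.1% and 74.6%, 48.9% and 65.7%, and 91.3% and 76.2%, and Rbm8a-204, from an exon junction gene, 13.9% and 15.9%, 8.49% and 10.8%, and 21.3% and 16.3%. Srsf6-204 and Clk1-204 are in the 5′ part of their genes, Srrm4-203 is in the 3′ part, Rbm8a-204 is internal and Snrnp70-216 spans the coding transcript. Over all members of these places, the median log2 ratio of share in knockout replicate 1 was -0.80, 0.23, -0.33 and -0.32. The part of place in the values above was not tested. Of 43 members in hnRNP genes, 1 passed by share at DIV3, Hnrnpk-215, described above.

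Ribosomal protein genes held 94 members, of which 48 had lower and 5 higher shares at DIV3 without overlap, with median shares of 1.19% at DIV1 and 0.904% at DIV3. In the knockout 28 were lower, among them Rpl34-204, and 20 higher. Translation factor genes had 18 lower and 2 higher of 40 at DIV3, and 19 and 3 in the knockout. Over all transcripts 23.2% were lower and 19.7% higher at DIV3, and 27.6% and 18.9% in the knockout. Over all members these were 36.6% and 9.25%, and 35.1% and 15.2%. Eif4g1-210, the most abundant of them, held 35.1% and 37.2% at DIV1 and 34.6% and 35.5% at DIV3, which overlapped.

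Of 28 host genes of axon growth and the cytoskeleton, 17 rose and 1 fell at DIV3 (edgeR), and of their 50 members 27 had lower and 3 higher shares without overlap. Over all genes 20.0% rose and 16.6% fell, and over all transcripts 23.2% had lower and 19.7% higher shares without overlap. Over all members the latter were 36.6% and 9.25%. Of 15 presynaptic host genes 10 rose and 1 fell, and of their 20 members 12 had lower and 2 higher shares. Of 11 postsynaptic host genes 6 rose and 1 fell, and of 15 members 7 had lower shares and 1 a higher one. No member of these 3 lists passed. Ap2m1-208, from a clathrin adaptor gene, held 16.3% and 14.5% at DIV1 and 15.1% and 13.7% at DIV3. Gria2-206, from an AMPA receptor subunit gene, held 9.06% and 9.20% at DIV1, 13.2% and 9.48% at DIV3, and 3.01% and 7.49% in the knockout. The presynaptic genes Vamp2 and Sv2a, named for their known place in intron control and outside the rule, had Vamp2-203 between 0.366% and 1.01% and Sv2a-202 between 0.208% and 1.13% of the gene.

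All 8 host genes of the cell cycle list fell at DIV3, and of their 14 members 5 had lower and 0 higher shares without overlap. Over all genes 16.6% fell. For these 14 members and the lists that follow, all transcripts gave 23.2% lower and 19.7% higher shares at DIV3, and 27.6% and 18.9% in the knockout. All members gave 36.6% and 9.25%, and 35.1% and 15.2%. Cdk4-207, from a cyclin-dependent kinase gene, was at 23.9 and 30.1 CPM at DIV1 and at 13.6 and 12.3 CPM at DIV3 (log2 fold change -1.06 ± 0.38, adjusted p = 0.247, edgeR). Chromatin regulators had 15 members lower and 5 higher of 46 at DIV3, with Chd3-205 at 8.49% and 10.8% against 7.0% and 7.66%. Among 26 members in long noncoding RNA genes, 10 were lower and 4 higher, with Gas5-218, from a snoRNA host gene, at 17.9% and 18.6% at DIV1, 20.7% and 19% at DIV3, and 10.6% and 22.9% in the knockout. Of 29 members in genes with known detained or regulated introns, 10 were lower and 5 higher at DIV3, and 16 and 3 in the knockout. Of 16 in genes of the CLK, DYRK and SRPK kinases these were 6 and 5, and 9 and 2. Neuronal splicing regulators (11 members) had 4 and 2, and 3 and 2. Genes of nonsense-mediated decay and the exon junction (8 members) had 4 and 0, and 3 and 2.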

How the data were processed

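RNA of 6 libraries was measured, 2 in each of 3 groups. The deposited values are expected counts per gene and per transcript; per the submitters' processing notes the authors used STAR and RSEM with GRCm38 (mm10), with versions and annotation release not given in the sources used here. Names, types, exons and sequences came from GENCODE M21, matched by identifier without version (99.4% of 123063 transcripts, 99.5% of 49671 genes). Summed transcripts differed from the gene's count by over 1% in 36 host genes, which hold 52 members.

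Expected counts were rounded and scaled by TMM. Features with a mean of 10 or more over the 6 libraries were tested, which all members pass. Counts were tested with edgeR 4.0.16 (quasi-likelihood, R 4.3.3) and shares with its diffSpliceDGE, all 6 libraries in 1 fit, with Benjamini-Hochberg adjustment over the whole table and a threshold of 0.05. The test scripts were tested on simulated data. Depth limits precision through RSEM's division of reads, whose error was not analysed here and enters no test. Alternatives were limma 3.58.1, DESeq2 1.42.0, other filters and scalings, a length trend, a replicate block and leaving out libraries.

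The members and lists were chosen with earlier results of these data known. Named members are the 8 most abundant, up to 8 called with the largest rise and fall in share per comparison (gene mean of 200 or more), up to 3 called and the most abundant not called per list, those of Ptbp1, Ptbp2, Shtn1 and Dlg4, and those called by share in both comparisons. Some members that this rule names are not reported here.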

Additional observations from a re-analysis of the deposited data

How the results depend on the processing

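Counts are of members or host genes called at an adjusted p under 0.05. For DIV3 against DIV1, 12 members were called by counts, 20 with the length trend removed, 3 with a minimum mean of 1, 26 by limma voom, 291 by DESeq2, 21 with library totals, 0 with the replicate block, and 0 to 74 without 1 library. By share 2 were called, 6 by limma diffSplice (0 of the 2 among them) and 0 by limma on log2 odds. The number was 0 among members of mean 200 or more and 0 among members with a mean share of 5% or more. Over the edgeR settings, the change in share of Hnrnpk-215, on the natural log scale, ranged from -7.4 to 0.06. The latter is without wild-type DIV1 replicate 1, where both groups are at 0 and the sign carries nothing. For the summed share per gene 0 were called, 2 by limma diffSplice, and 0 to 20 without 1 library. For host genes the 1065 called became 415 to 1691 without 1 library.

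For the knockout, 0 members were called by counts, 23 by DESeq2, and 0 to 113 without 1 library. By share 7 were called, 4 among members of mean 200 or more, 8 by limma diffSplice (1 of the 7 among them), 1 by limma on log2 odds, 0 with a mean share of 5% or more, 9 with the replicate block, and 4 to 99 without 1 library. For the summed share per gene 0 were called, 1 with the replicate block, 1 with that block and the length trend removed, and 0 to 675 without 1 library. For host genes 0 were called, 4 with the length trend removed, 2 with a minimum mean of 1, 42 by DESeq2, and 0 to 1361 without 1 library. The cause of these differences was not tested. Where a group is left with 1 library, it is assumed to vary like the others.

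The replicate numbers, which go with Xist and Y-linked levels, do not pair the samples by the correlation rule used: over genes, replicate differences correlated at 0.70 between the wild-type groups and at 0.04 and -0.11 between these and the knockout. With the knockout numbers crossed, an alternative chosen after seeing the data, the replicate block called 0 members by counts, 14 by share, 7 host genes by summed share and 104 host genes by counts. With the replicate block 760 host genes and 3 members by share were called at DIV3. Shares per length left the numbers of members without overlap within 1.5 times, at 451 higher and 1666 lower at DIV3 and 704 higher and 1612 lower in the knockout.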
